A study of Mus musculus with 6 samples.

Results

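The endothelial progenitor cell (EPC) cultures of mice that breathed filtered air are described here on their own, as the unexposed baseline of the study. They comprise 3 of the 6 mRNA libraries of the series, 1 for each of 3 male C57BL/6J mice, and are called air replicates 1, 2 and 3. The other 3 libraries came from mice exposed to concentrated ambient particles and were not analysed here. The air mice shared 1 cage and inhaled HEPA-filtered air for several hours a day over about a month, after which bone marrow cells were isolated and grown as EPCs. The labels give 12 days of culture, while the methods of the study give a shorter time. Poly-A selected RNA of each culture made 1 library with a strand-marking kit. The cultures are whole populations of 1 strain, sex and cage, with no sorting step named in the sources used here. A gene was kept when it had at least 10 counts in each of the 3 libraries, which held for 12799 of the 21965 genes counted (58.3%).

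Bone marrow is a tissue of blood-forming cells held in a net of stromal cells, vessels and resident macrophages. Endothelial cells line vessels and are defined by adhesion molecules of their junctions and by receptors for vascular growth factors. Macrophages are phagocytes that carry a large lysosomal system, in which proteases and glycosidases break down engulfed material. Cultures grown from marrow mononuclear cells under endothelial conditions are widely called EPCs, and cells of myeloid descent are a known component of such cultures.

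The depth was even, with 28713206, 29063232 and 28757479 counts in air replicates 1, 2 and 3, the order in which values of single libraries are given throughout. No 2 libraries held the same counts. A count of 0 allowed a level of up to 0.104 CPM (the counts of a gene divided by the total of its library and scaled to a sum of 1000000), and this limit, like every interval of a gene level given here, covers counting error only. The intervals given for promoter shares rest on the number of promoter windows read. The kept genes held 99.95% of all counts. A further 6262 genes had no count in any air library, 2904 had some counts without meeting the minimum, and 950 of these reached 10 counts in 1 or 2 libraries only. The minimum split genes of like level, since 65 kept genes had a lowest count of exactly 10 and 59 other genes a lowest count of exactly 9. All 4 Y-linked genes examined were present, among them the translation factor gene Eif2s3y with 1916, 2609 and 1979 counts, as the male sex of the mice implies.

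The most abundant transcripts of the air cultures were those of macrophage and lysosomal genes. Ctsb, which encodes the lysosomal protease cathepsin B, ranked first with 15537, 15454 and 16867 CPM, followed by Psap, the precursor of the saposins that activate lysosomal lipid hydrolases, with 13427, 13357 and 13663 CPM. Lyz2, the lysozyme gene of macrophages and neutrophils, had 12357, 12891 and 12244 CPM. Gpnmb, a membrane glycoprotein of lysosome-rich macrophages, had 10981, 10284 and 10584 CPM, and Spp1, the secreted phosphoprotein osteopontin, had 9651, 9144 and 7673 CPM. For these 5 genes the libraries lay within 1.26-fold of each other. Ctsd, another lysosomal protease gene, was sixth with 9071, 7973 and 8959 CPM. The iron storage chains ranked eighth and ninth, with Fth1 at 8090.4, 6397 and 7460.4 CPM and Ftl1 at 7718, 5921 and 6448 CPM. Fn1, the matrix protein fibronectin, had 6649, 5845 and 6868 CPM and Apoe, a carrier of lipids, 4838, 4685 and 6182 CPM. Selenop, a selenium transport protein, varied more, with 5539.8, 9441 and 7470.4 CPM, and was 1.70 times as high in air replicate 2 as in air replicate 1. Cxcl12, the chemokine that retains blood progenitors in the marrow, was the most uneven of the 20 most abundant genes, with 1697, 2183 and 3991 CPM and air replicate 3 above both others.

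**Figure D1:**
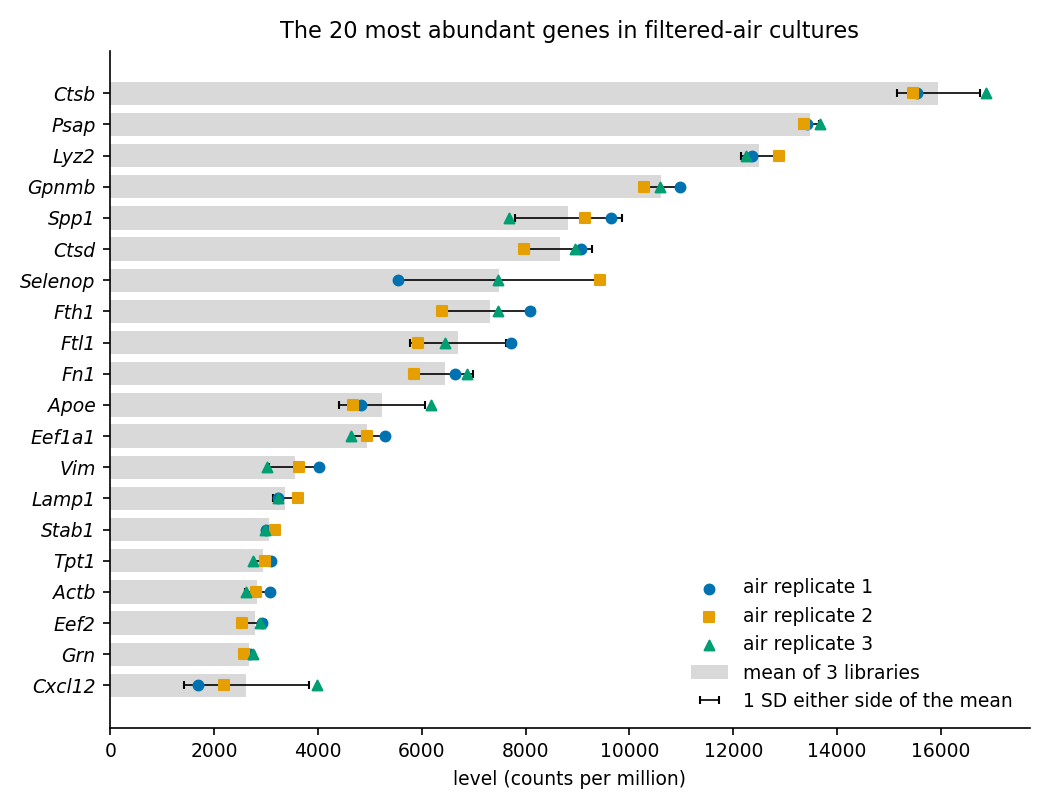
Levels of the 20 most abundant genes in CPM (horizontal axis). Grey bars give the mean of the 3 air libraries, black lines 1 SD either side of it, and points the single libraries. Ctsb leads at 15953 CPM, the points of most genes lie close together, and those of Selenop and Cxcl12 are the widest apart.

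Few genes carried much of the RNA. The single most abundant gene held 1.60% ± 0.08 of the counts, the 10 most abundant held 9.80% ± 0.12, the 100 most abundant 24.3% ± 0.32 and the 1000 most abundant 54.3% ± 0.35 (SD, n = 3). A mean level above 1000 CPM was reached by 81 kept genes, above 100 CPM by 2117 and above 10 CPM by 9471. CPM favours long transcripts, so that genes are compared with each other below in TPM, that is, CPM divided by exon length and rescaled to a total of 1000000. Fold differences between libraries and coefficients of variation are always those of CPM. By TPM, Lyz2 ranked first with 30862, 33503 and 31526 TPM, ahead of Spp1 (18001 ± 1931 TPM, mean ± SD, n = 3), Ftl1 (16782 ± 1955 TPM), Psap (16534 ± 406 TPM) and the aspartic protease gene Ctsd (12397 ± 701 TPM). Ctsb fell to the seventh place at 8873 ± 517 TPM, and Fn1, whose exons span 11685 bases, to the 48th at 1858 ± 141 TPM. Of the 20 most abundant genes by CPM, 11 were also among the 20 most abundant by TPM. Processed copies of ferritin and ribosomal protein genes, and the near-identical lysozyme gene Lyz1, could share reads with the genes named, and how such reads were counted is not given in the sources used here.

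Of the 100 most abundant genes by CPM, 46 stood in at least 1 of 37 gene lists, which leaves out 10 lists added after the values were seen, 15 of them among the lysosomal genes and 7 among the macrophage genes. No endothelial gene was among the 100. The promoter windows of the 100 genes, the 250 bases before each transcription start and 50 after it as given by RefSeq, were read where available (85 genes, 106 windows). The TATA box letters TATAAA, on either strand, were in 23 of these windows (21.7%, exact 95% interval 14.3% to 30.8%), against 7.33% of the windows of all kept genes and 13.6% of all windows. A match of letters is a description of the window and not evidence of a bound site.

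Genes of the lysosome were high as a group and differed little between the cultures. All 34 lysosomal genes listed were kept, all 34 lay above 100 TPM, and together they took 6.73% of the counts. Fewer cells of a type and less RNA per cell cannot be told apart in RNA of a whole culture, here and in every list below. Their summed level was 67755, 69308 and 71391 TPM, their median level was 595 TPM against 20.5 TPM over all kept genes, and their median coefficient of variation of CPM (CV, the SD over the mean of the 3 libraries) was 5.50% against 12.3% over all kept genes. Behind Psap, Ctsd and Ctsb came Lamp1, a glycoprotein of the lysosomal membrane, with 3973, 4615 and 4091 TPM. The cysteine proteases Ctss and Lgmn followed with 3413, 4112 and 3975 TPM and 3321, 3439 and 3548 TPM. Grn, the precursor of the lysosomal granulins, had 2549, 2544 and 2684 TPM, and Npc2, which moves cholesterol out of lysosomes, had 1179.8, 1186 and 1242 TPM. None of the 34 genes differed by 2-fold between the highest and the lowest library, against 7.51% of all kept genes. All 34 also lay above 100 CPM, where 2-fold was rare. It was reached by 1.13% of kept genes at 100 to 1000 CPM and by 2.47% above 1000 CPM. The median CV in these ranges was 9.68% and 9.77%. Lamp2, the second major membrane glycoprotein, was the most uneven of the 34 at 595, 1005 and 772 CPM, or 1.69-fold.

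The letters CACGTGA, the core of the site through which the factor TFEB and its relatives are known to drive lysosomal genes, were searched for on both strands because all genes of this group were high. They were in 9 of the 32 RefSeq windows of lysosomal genes (28.1%, exact 95% interval 13.7% to 46.7%; 27 of 34 genes had a window), against 5.78% of the windows of kept genes and 3.77% of all windows. The 9 genes were Atp6v0d1, Atp6v1a, Ctsa, Ctsd, Gaa, Glb1, Lamp1, Lgmn and Naglu. The 250 bases before the start of the 3 most abundant of them by CPM are shown with the matches in capitals, read 5′ to 3′ on the strand of the gene (GRCm38.p6).
Ctsd (chr7:142387828-142388077, minus strand): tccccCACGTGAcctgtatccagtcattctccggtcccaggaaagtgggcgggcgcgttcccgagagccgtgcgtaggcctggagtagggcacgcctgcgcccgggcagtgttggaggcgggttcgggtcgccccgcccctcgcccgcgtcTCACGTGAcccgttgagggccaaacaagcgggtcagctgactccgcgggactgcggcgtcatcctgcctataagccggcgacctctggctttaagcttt
Lamp1 (chr8:13158911-13159160, plus strand): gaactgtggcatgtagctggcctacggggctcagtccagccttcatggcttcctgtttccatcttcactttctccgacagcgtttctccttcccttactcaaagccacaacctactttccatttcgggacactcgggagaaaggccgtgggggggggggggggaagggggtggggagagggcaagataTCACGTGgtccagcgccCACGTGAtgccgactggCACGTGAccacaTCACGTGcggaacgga
Lgmn (chr12:102439093-102439342, minus strand): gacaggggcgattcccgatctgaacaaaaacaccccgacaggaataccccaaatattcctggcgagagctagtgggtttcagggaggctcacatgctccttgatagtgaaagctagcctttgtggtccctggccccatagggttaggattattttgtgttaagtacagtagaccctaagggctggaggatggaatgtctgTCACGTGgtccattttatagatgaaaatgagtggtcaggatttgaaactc
Lamp1 held 4 matches within its last 62 bases, Ctsd held 3 counted on both strands, of which a pair overlapped 99 bases before the start, and Lgmn held 1. The transcripts of the 3 genes stood at 12681, 11599 and 12911 TPM for Ctsd, 3973, 4615 and 4091 TPM for Lamp1 and 3321, 3439 and 3548 TPM for Lgmn.

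The label of the cultures was next compared with the markers that define cell types. Of the 54 defining markers of 20 lineages, 35 were kept. The 6 markers of macrophages were all kept and lay at high levels: Lyz2 as given above, the endosomal glycoprotein Cd68 at 4329, 4143 and 4489 TPM, the complement chain C1qa at 5730.3, 6010.4 and 6540.2 TPM, the mannose receptor Mrc1 at 820.1, 1248 and 1072 TPM, the adhesion receptor Adgre1 (F4/80) at 409, 506 and 448 TPM and the M-CSF receptor Csf1r at 237, 265 and 253 TPM. The 6 markers of endothelium were low by comparison. VE-cadherin (Cdh5) had 5.66, 6.64 and 26.4 TPM, PECAM-1 (Pecam1) 3.20, 4.10 and 13.1 TPM, the VEGF receptor Kdr 1.93, 2.97 and 3.63 TPM and the receptor Tie1 1.86, 1.24 and 4.15 TPM, and the angiopoietin receptor Tek missed the count minimum with 4, 24 and 86 counts. Von Willebrand factor (Vwf), with 365, 391 and 482 counts, was below Pecam1 in TPM in every library. In length-scaled terms Lyz2 was 5448, 5049 and 1196 times as abundant as Cdh5 in air replicates 1, 2 and 3. Each macrophage marker was above each endothelial one in every library, and the cultures are called air cultures below and not by a cell type. The 4 genes that anchor the description lie at chr14:63122462-63145923 (Ctsb), chr10:117277331-117282321 (Lyz2), chr1:71585520-71653200 (Fn1) and chr8:104101625-104144511 (Cdh5) in GRCm38, whole genes with introns included.

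Over whole lists the order was the same. The 24 kept macrophage genes summed to 62679, 66025 and 65833 TPM, the 21 kept endothelial genes to 148, 181 and 293 TPM, the 20 stromal and reticular genes to 3333, 3813 and 5363 TPM and the 18 fibroblast matrix genes to 6543, 6216 and 7114 TPM. The macrophage sum was 423, 365 and 225 times the endothelial sum, a mean of 338 ± 102 (SD, n = 3). Since Lyz2 made up 49.3% of the macrophage sum and Lyve1 34.9% of the endothelial sum, the ratio was also taken without the leading gene of each list, where it averaged 268. Summed as CPM, without length scaling, it averaged 128. By the same measure the macrophage sum was 16.1 ± 3.42 times the stromal and reticular sum and 9.82 ± 0.71 times the matrix sum, or 4.40 and 1.91 times when CPM was summed. Lists of different genes are not calibrated against cell numbers, so that these ratios compare RNA and not cells.

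**Figure D2:**
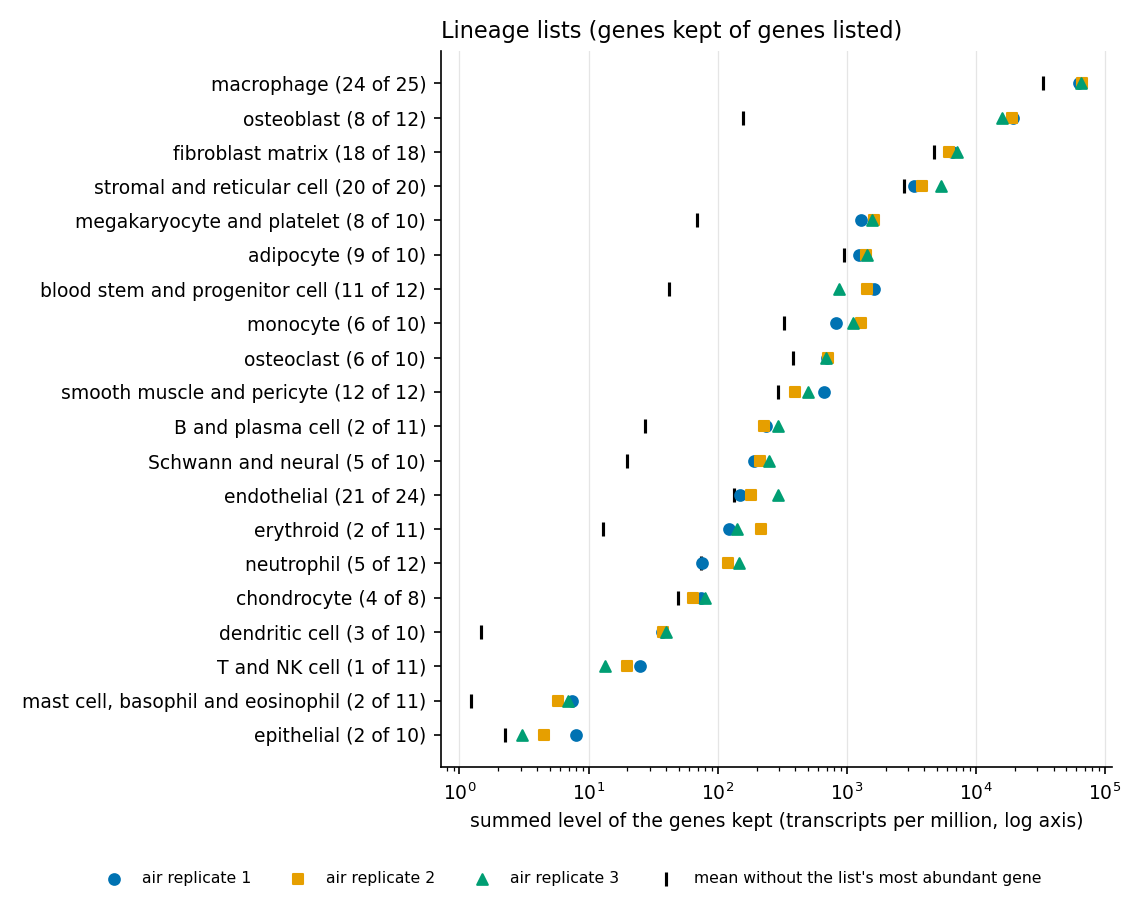
Summed level of the kept genes of each lineage list in TPM (log axis), 1 point per air library, with the numbers of genes kept and listed. The black tick marks the mean without the list's most abundant gene, which lies far below the points for the osteoblast, platelet and blood stem cell lists, each led by 1 gene, while the macrophage list stays on top with 32883 TPM.

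The macrophage genes other than Lyz2 gave the finer picture of the phagocytes. The 3 chains of C1q, the starter of the classical complement pathway, were at 6734 ± 434 TPM (C1qb), 6094 ± 411 TPM (C1qa) and 3687 ± 117 TPM (C1qc), in a nearly fixed proportion, with C1qa at 0.90 ± 0.02 and C1qc at 0.55 ± 0.02 times the level of C1qb (SD, n = 3). Tyrobp, the signalling adaptor of many myeloid receptors, had 2889, 2829 and 3088 TPM, and Mpeg1, the pore protein perforin-2, had 1203, 1518 and 1381 TPM. Of the 25 listed genes, 24 were kept, 21 exceeded 100 TPM and 0 differed by 2-fold between libraries. Of all kept genes 7.51% reached 2-fold, and of those at 100 to 1000 CPM, where most macrophage genes lay, 1.13%. Timd4, a receptor for dying cells on some resident macrophages, was the gene that was not kept, with 2, 1 and 15 counts. Marco, a scavenger receptor of tissue macrophages, was the most uneven of those kept, with 559.9, 378 and 661 CPM.

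The letters GAGGAAG, the purine-rich core of the site of the myeloid factor PU.1, were in 8 of the 17 RefSeq windows of macrophage genes (47.1%, exact 95% interval 23.0% to 72.2%; 17 of 25 genes had a window), against 13.6% of the windows of kept genes and of all windows. These were the windows of C1qc, Cd5l, Fcgr1, Itgam, Laptm5, Marco, Mrc1 and Trem2. The upstream 250 bases of the 3 most abundant of them by CPM are shown in the same way, with GAGGAAG or its reverse complement CTTCCTC in capitals.
C1qc (chr4:136892915-136893164, minus strand): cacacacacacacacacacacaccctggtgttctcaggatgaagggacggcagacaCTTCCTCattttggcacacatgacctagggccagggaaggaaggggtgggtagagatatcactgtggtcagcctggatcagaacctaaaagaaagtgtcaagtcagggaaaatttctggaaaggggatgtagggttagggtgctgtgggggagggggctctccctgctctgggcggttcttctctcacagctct
Mrc1 (chr2:14229164-14229413, plus strand): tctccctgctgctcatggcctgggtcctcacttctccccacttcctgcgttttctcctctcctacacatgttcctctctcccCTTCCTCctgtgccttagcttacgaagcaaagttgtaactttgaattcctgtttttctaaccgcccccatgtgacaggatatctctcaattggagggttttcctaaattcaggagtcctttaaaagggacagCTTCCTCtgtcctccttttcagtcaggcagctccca
Laptm5 (chr4:130913066-130913315, plus strand): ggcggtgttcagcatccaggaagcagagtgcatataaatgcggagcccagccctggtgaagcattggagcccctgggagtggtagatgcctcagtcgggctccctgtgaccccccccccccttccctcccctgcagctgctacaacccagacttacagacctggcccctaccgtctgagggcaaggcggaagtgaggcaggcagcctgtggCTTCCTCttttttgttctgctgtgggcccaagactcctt
All matches in these 3 sequences read CTTCCTC on the strand of the gene, 194 bases before the start for C1qc, 168 and 36 bases before it for Mrc1 and 39 bases before it for Laptm5. Laptm5, a lysosomal membrane protein of blood cells, was the most even macrophage gene, with 692, 707 and 715 TPM. Spi1, which encodes PU.1, had 151, 137 and 160.5 TPM.

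Lists drawn up after the values had been seen, 10 in all, gave further detail. Among 19 transcription factors of myeloid cells, all were kept, led by Cebpa at 241 ± 26.7 TPM, Maf at 200.1 ± 60.7 TPM, Stat6 at 159 ± 3.85 TPM and Spi1 at 149 ± 12.0 TPM. Tfeb, the lysosomal regulator named above, was at 8.50 ± 0.368 TPM and its relatives Tfe3 and Mitf at 26.4 ± 1.19 TPM and 13.3 ± 3.28 TPM. Of 18 phagocytic receptor genes, 17 were kept and 11 exceeded 100 TPM, among them the Fc receptor Fcgr3 at 1349 ± 78.1 TPM, the scavenger receptor Stab1 at 999 ± 48.1 TPM, the integrin chain Itgb2 at 559.9 ± 43.9 TPM and the endocytic receptor Lrp1 at 484 ± 27.4 TPM. Genes that mark macrophages of particular tissues split, with 14 of the 20 listed kept, against 58.3% of all genes counted, and 6 under 1 TPM on average. Vcam1 (387 ± 58.9 TPM), Hmox1 (1675 ± 48.9 TPM), Cd5l (879 ± 99.1 TPM), Vsig4 (420.3 ± 68.4 TPM) and Spic (13.2 ± 2.22 TPM), known from iron-recycling and liver macrophages, were present. The Kupffer cell lectin Clec4f had 0 counts in all 3 libraries, and the microglial factor gene Sall1 had 8, 2 and 0 counts. Vcam1 and Hmox1 are also expressed by stromal cells.

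Genes of macrophage activation were unequal. Of the 15 genes listed for alternative activation, 9 were kept, against 58.3% of all genes counted, and 6 exceeded 100 TPM. Fn1, with 38.6% of the sum, and Mrc1 led, followed by the arginase gene Arg1 at 489, 1186 and 776 TPM and the chitinase-like Chil3 at 502, 668 and 591 TPM, the haemoglobin scavenger receptor Cd163 at 271 ± 56.4 TPM and the folate receptor Folr2 at 205 ± 30.0 TPM. In CPM, Arg1 was 2.33 times as high in air replicate 2 as in air replicate 1. Retnla, Ccl22, Pdcd1lg2 and Cd209d, of the same list, had 0 counts. Among the 18 inflammatory genes 10 were kept, against the same 58.3% of all genes counted. They were mostly chemokines: Ccl3 at 315 ± 35.3 TPM, Ccl2 at 199 ± 18.2 TPM, Ccl4 at 193 ± 9.40 TPM and Ccl7 at 185 ± 31.3 TPM. The cytokine Tnf had 38, 40 and 25 counts, Il6 16, 6 and 5, Il1b 0, 1 and 0 and the nitric oxide synthase gene Nos2 2, 7 and 10, while Il12b had none. The interleukin gene Il1a, by contrast with Il1b, had 566, 683 and 541 counts. MHC class II, through which antigen is presented to helper T cells, was nearly absent. Its regulator Ciita had 0 counts, the alpha chain H2-Aa had 3, 1 and 0 counts and the beta chain H2-Ab1 83, 81 and 105 counts, or 4.08 TPM. The peptide-loading chain H2-DMb1 stood above these at 45.9 ± 1.18 TPM. The H2 genes are close paralogs, and the split of reads among them is uncertain.

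Iron, lipid and complement genes were also abundant. All 14 iron genes were kept and 9 exceeded 100 TPM. Beside the ferritins, the heme oxygenase gene Hmox1 was even at 862, 870.2 and 882 CPM (CV 1.13%, 1675 ± 48.9 TPM). The iron exporter Slc40a1 had 108, 162 and 106 TPM and the transferrin receptor Tfrc 109, 203 and 129 TPM, both highest in air replicate 2. Among 18 lipid genes, 16 were kept, headed by Apoe (8243 ± 1346 TPM) and Gpnmb (5482 ± 73.4 TPM), with the fatty acid binding protein Fabp5 at 621 ± 32.1 TPM and the scavenger receptor Cd36 at 389, 516 and 384 CPM. The other apolipoproteins listed were scarce, Apoc1 with 29, 7 and 32 counts and Apoc2 with 0, 2 and 0. Complement genes fell into an even and an uneven part. The C1q chains and properdin (Cfp, 392, 406 and 388 CPM) varied by 1.13-fold or less, whereas the C1 inhibitor Serping1 had 204, 229 and 472 CPM, the C1 protease gene C1ra 48.0, 44.8 and 93.5 CPM and C4b 27.0, 31.8 and 62.1 CPM. In these last 3 genes air replicate 3 was highest, by 2.31-fold, 2.09-fold and 2.30-fold over the lowest library.

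The endothelial genes were rare but present, and their median CV was the highest of all lists. Of 24 genes, 21 were kept, none reached 100 TPM, and the median level was 4.10 TPM against 20.5 TPM over all kept genes. The leading members, the hyaluronan receptor Lyve1 (47.8, 78.7 and 90.8 TPM) and endoglin (Eng, 51.4, 42.3 and 47.7 TPM), and the scavenger receptor Stab2 (5.78, 6.76 and 6.39 TPM), are also known from cells other than endothelium. Stab2 and Eng were the most even members, with CVs of 5.86% and 11.6%. Cdh5 had 208, 237 and 940 counts. Its level of 32.7 CPM in air replicate 3 (exact Poisson 95% interval 30.6 to 34.8) stood apart from 7.24 CPM (6.29 to 8.30) in air replicate 1 and 8.15 CPM (7.15 to 9.26) in air replicate 2. Pecam1 had the same order, with 174, 217 and 690 counts, as did the fenestral diaphragm protein Plvap with 69, 150 and 420 counts. Emcn, a sialomucin of small vessels, had 178, 210 and 454 counts. Kdr (152, 228 and 278 counts) and Vwf (365, 391 and 482 counts) differed less, by 1.83-fold and 1.32-fold. The 3 genes that were not kept, Tek, the tight junction gene Cldn5 (9, 7 and 87 counts) and the factor Sox17 (5, 24 and 24 counts), were not highest in air replicate 1.

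Air replicate 3 was highest in 19 of the 21 kept endothelial genes, and the highest level was at least 2-fold over the lowest in 14 of them, each time with air replicate 3 highest. Over all kept genes air replicate 3 was highest in 31.8%, 7.51% reached 2-fold and 3.52% did so with air replicate 3 highest. Genes at 1 to 10 CPM, where most endothelial genes lay, reached 2-fold more often, at 21.3%. The median CV of the list was 62.0%. Between air replicates 1 and 2 alone, 3 of the 21 reached 2-fold, against 3.02% of all kept genes. With at least 50 counts required in each library, which fewer endothelial genes met, the number was 9, against 396 of 11540 genes of any kind. The library that held the most endothelial RNA also held the most stromal RNA, and with 3 libraries the association of both lists was not tested.

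Stromal and matrix genes formed the second compartment. All 20 stromal and reticular genes were kept, and the defining markers of the CXCL12-rich reticular cells of marrow were well above the endothelial level. Cxcl12 had 682, 913 and 1654 TPM, the leptin receptor Lepr 34.9, 56.8 and 116 TPM, Pdgfra 64.7, 81.7 and 93.2 TPM and Pdgfrb 119, 98.9 and 161 TPM. Gsn, an actin-severing protein, led the list at 1372 ± 195 TPM, and Vcam1 was at 387 ± 58.9 TPM. The stem cell factor gene Kitl had 98.3, 201 and 161 TPM, and adiponectin (Adipoq), made by fat cells and by these reticular cells, 83.6, 121 and 259 TPM. In 6 of the 20 genes the highest library was at least 2-fold over the lowest, with air replicate 3 highest in all 6 (Cxcl12, Igfbp5, Lepr, Adipoq, Dcn and Lum, of which the last pair were named after their values were seen), against 3.52% of all kept genes. Without air replicate 3 none of the 20 reached 2-fold, and without air replicate 1 it was 2. Not every stromal gene followed this order, as the podoplanin gene Pdpn, also named after its values were seen, was lowest in air replicate 3 with 81.0, 75.6 and 57.3 TPM.

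Matrix genes were less uneven. All 18 were kept and 10 exceeded 100 TPM. After Fn1 came biglycan (Bgn) at 1408, 1287 and 1592 TPM, the collagen-binding protein Sparc at 1002, 857 and 849 TPM and the collagen chain Col1a2 at 509, 480.0 and 486 TPM. Its partner Col1a1 had 118, 118 and 156 TPM, so that the ratio of Fn1 to Col1a1 was 15.9, 14.5 and 12.8. Fn1 is also made by macrophages, and its cell source was not tested. Of 22 collagen genes listed after the values were seen, 21 were kept, led by Col1a2, the basement membrane chain Col4a1 (328 ± 73.5 TPM), Col6a1 (227 ± 79.8 TPM) and Col4a2 (203 ± 36.4 TPM), and air replicate 3 was highest in 13 of the 21, against 31.8% of all kept genes. The stromal factors Snai2 (90.9 ± 3.94 TPM), Prrx1 (58.2 ± 11.2 TPM), Foxc1 (58.0 ± 11.3 TPM) and Twist1 (46.3 ± 2.18 TPM), from another of those lists, were all kept. Contractile genes of smooth muscle and pericytes ran in another order. The actin gene Acta2 had 318, 173 and 208 TPM, Tagln 132, 80.6 and 70.9 TPM and Myl9 170.0, 104 and 166 TPM, and air replicate 1 was highest in 8 of the 12 genes, all of which were kept, against 35.3% of all kept genes.

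The lists of several other lineages rested largely on 1 gene that other cells also express. The T cell receptor chain Cd3e had 0, 2 and 0 counts and the natural killer receptor Ncr1 0, while Cd4, which mouse macrophages may carry, had 886, 683 and 456 counts. The B cell receptor chain Cd79a had 0, 1 and 0 counts, and the B and plasma cell list was led by Sdc1, a proteoglycan of many cell types, with 89.2% of the sum. Haemoglobin (Hba-a1, 6, 0 and 0 counts) was scarce, and the erythroid list rested on Tfrc with 91.9%. Ly6g of neutrophils and Flt3 of dendritic cell precursors had 0 counts, and the epithelial Cdh1 likewise. Of 12 neutrophil genes 5 were kept, none above 100 TPM, led by the collagenase gene Mmp8 with 35.1% of the sum. The calgranulin gene S100a8 had 101, 124 and 121 counts and the elastase gene Elane 9, 20 and 29. Monocyte markers were nearly absent, with 21, 3 and 1 counts for Ly6c2 and 0, 8 and 15 for Ccr2, and the monocyte list was led by the clotting factor gene F13a1 (476, 999 and 777 TPM, 69.5% of the sum). Kit and Cd34, which mark blood stem and progenitor cells and, in part, endothelium, had 52, 64 and 111 and 49, 54 and 150 counts, both highest in air replicate 3, whereas Ly6a (Sca-1), 96.8% of that list's sum, was lowest there with 1576, 1408 and 824 TPM.

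Pf4, the chemokine of platelets and of some macrophages, made up 95.4% of the megakaryocyte and platelet sum with 1238, 1543 and 1512 TPM, beside 9.34, 9.11 and 8.90 TPM for Itga2b and 6.50, 5.74 and 5.88 TPM for Gp9. Spp1 made up 99.1% of the osteoblast sum. Of 12 osteoblast genes 8 were kept, against 58.3% of all genes counted, and 2 exceeded 100 TPM. Bone sialoprotein (Ibsp) had 70.2, 103 and 141 TPM, and the factor Runx2 had 946, 1186 and 1258 counts. The osteoblast factor Sp7 had 93, 108 and 138 counts. Of the osteocalcin genes, Bglap had 6, 14 and 6 counts and Bglap2 had 71, 69 and 118. The osteoclast list had 6 of 10 genes kept, against 58.3% of all genes counted, and 3 above 100 TPM. The protease gene Ctsk had 356, 284 and 316 TPM (45.2% of the sum) and the phosphatase gene Acp5 116, 126 and 141 TPM, while the calcitonin receptor Calcr had 0, 4 and 0 counts. Irf8, a factor shared with macrophages, was 96.1% of the dendritic cell sum. Among adipocyte genes 9 of 10 were kept and 5 exceeded 100 TPM, with Cd36 at 29.6% of the sum, Lpl at 167 ± 16.9 TPM and Fabp4 at 309 ± 23.1 TPM among them, but the fat droplet protein Plin1 was at 3.10 TPM. The mast cell protease Cpa3 had 10, 24 and 14 counts, and the eosinophil protein Prg2 6, 0 and 7. The Schwann cell factor Sox10 had 4, 0 and 0 counts, and S100b, with 169, 192 and 234 TPM, held 90.9% of its list.

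Transcripts of growth factors, chemokines and their receptors were present for both myeloid and vascular pathways. Csf1, the growth factor that macrophages need, had 475, 376 and 399 TPM, beside 237, 265 and 253 TPM for its receptor Csf1r, and the second ligand Il34 had 63.2, 53.4 and 77.0 TPM. Csf2 and Csf3, the other colony-stimulating factors, had 0 counts in every library. Of 24 chemokine genes, 19 were kept: Ccl6 (4386 ± 503 TPM), Pf4 and Cxcl12 led, followed by Ccl9 at 673 ± 64.0 TPM. Among the VEGF family, Vegfb had 173, 125 and 166 TPM, Vegfa 119, 124 and 113 TPM and Vegfd 74.3, 69.7 and 75.5 TPM, and Vegfc, a growth factor of lymphatic vessels, 22.8, 22.1 and 47.7 TPM with air replicate 3 highest. Their receptors were far lower, with Kdr at 2.84 TPM, Flt4 at 2.56 TPM and Flt1 at 0.578 TPM on average, whereas the coreceptors Nrp1 and Nrp2 stood at 97.6 ± 17.7 TPM and 103 ± 4.07 TPM. Angpt2 had 148, 137 and 168 TPM and Angpt1 15.1, 31.3 and 33.2 TPM, against 0.949 TPM on average for their receptor Tek. All 19 angiogenic factor genes in the table were kept, Thbs2 (806 ± 128 TPM) and Thbs1 (409 ± 53.6 TPM), which restrain vessel growth, among the highest. Of 18 protease and inhibitor genes 17 were kept. Cst3 (1809 ± 341 TPM), Timp2 (1347 ± 35.4 TPM) and the membrane protease Adam8 (1148 ± 69.8 TPM) led, and the collagenase gene Mmp13 had 44.4, 86.3 and 224 TPM.

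The cultures held transcripts of dividing cells. All 25 mitosis genes and all 24 replication genes were kept, with a summed level of 575, 598 and 527 TPM and 672, 688 and 669.7 TPM. Their median levels were 18.7 TPM for mitosis and 21.2 TPM for replication, near the 20.5 TPM over all kept genes. Mki67, present in cycling cells, had 51.2, 60.9 and 54.0 TPM, the topoisomerase gene Top2a 38.4, 45.9 and 41.7 TPM, the polymerase clamp Pcna 129, 142 and 128 TPM and the helicase subunit Mcm6 48.7, 48.4 and 49.0 TPM. Air replicate 3 was highest in 1 of the 25 mitosis genes and in 11 of the 24 replication genes, against 31.8% of all kept genes. Of the mitosis and replication genes, 0 and 1 reached 2-fold, against 7.51% of kept genes and 1.93% of those at 10 to 100 CPM.

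Across all kept genes the 3 cultures were close. The Pearson correlation of log2(CPM + 1) between pairs of libraries was 0.987 for each pair over the 12799 genes, which are not independent replicates. The biological coefficient of variation, the part of the spread beyond counting error as fitted over all genes, was 16.8%. The median CV was 12.3%, and in 11834 genes (92.5%) it exceeded the CV that counting error alone would give. The spread fell with level: the median CV was 31.5% below 1 CPM, 21.3% from 1 to 10 CPM, 10.9% from 10 to 100 CPM, 9.68% from 100 to 1000 CPM and 9.77% above 1000 CPM, where counting error alone gives 0.46%. Of the 961 genes at 2-fold or more, 222 were highest in air replicate 1 (1.73% of kept genes), 288 in air replicate 2 (2.25%) and 451 in air replicate 3 (3.52%). The count was 468 without air replicate 1, 592 without air replicate 2 and 405 without air replicate 3, since a range over 2 libraries is narrower than one over 3.

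**Figure D3:**
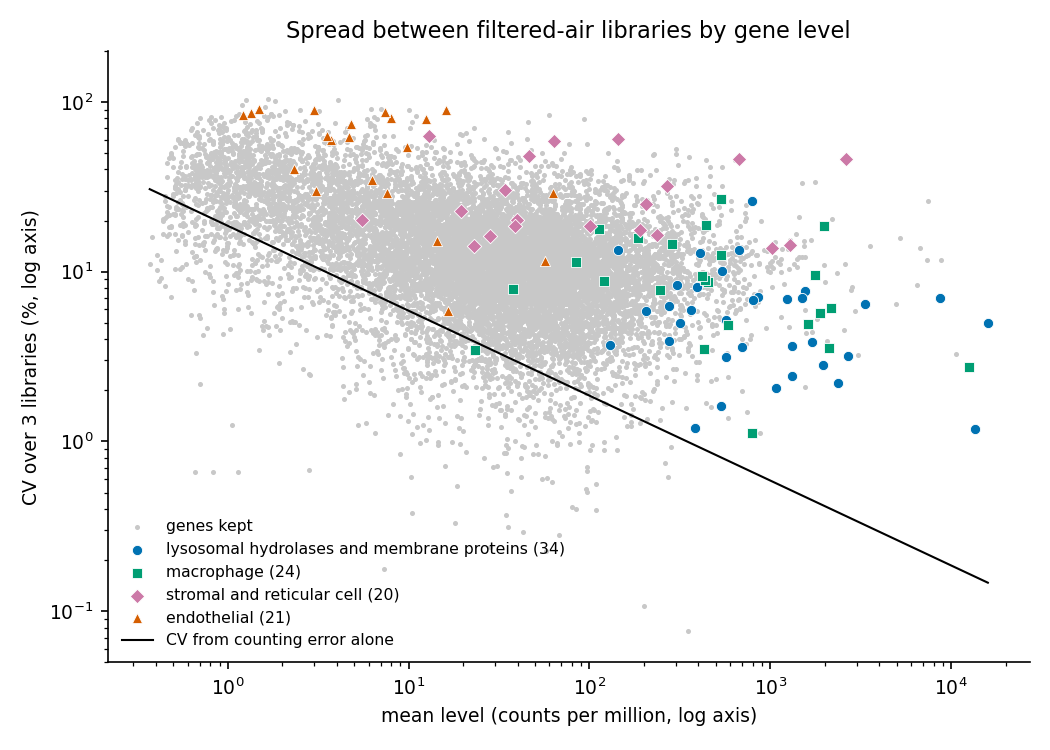
Coefficient of variation over the 3 air libraries (%, log axis) against mean level (CPM, log axis), 1 point per kept gene. The black line is the CV from counting error alone; endothelial genes lie high at low levels (median CV 62.0%) and lysosomal genes low at high levels (median CV 5.50%).

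Ranked by the highest over the lowest CPM among genes of at least 5 CPM, the first was Prl2c2, a member of the proliferin family, with 265, 227 and 15 counts, 17.7-fold lower in air replicate 3 than in air replicate 1; its family holds near-identical copies. Next were Plvap and Cldn11, a claudin of tight junctions, with 126, 69 and 410 counts. The matrix protease gene Mmp13 (1037, 1960 and 5093 counts) was the most abundant of the first 15 genes by this measure, and Cdh5, Pecam1 and the endothelial and pericyte adhesion molecule Mcam (101, 95 and 358 counts) were among them. Dio2, which activates thyroid hormone, had 59, 150 and 318 counts, the matrix protein gene Abi3bp 109, 174 and 586, the secreted factor Ndnf 148, 185 and 618, the natriuretic peptide receptor Npr3 85, 134 and 335 and the phosphodiesterase gene Gdpd2 794, 997 and 3377. Air replicate 3 was highest in 11 of the 15, and in 451 of the 961 kept genes at 2-fold or more. Air replicate 2 was highest in 3 others, Arxes2 (63, 318 and 152 counts), Zfp758 (78, 367 and 133 counts) and Gm6377 (81, 368 and 89 counts).

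At the other end, the most even of the 2117 genes above 100 CPM was Rab5c, a GTPase of early endosomes, with 10104, 10212 and 10109 counts and 352, 351 and 352 CPM. Slc9a3r1, a membrane scaffold protein, followed with 201, 201 and 202 CPM. The other 8 of the 10 most even genes were Slc35f6, Sorbs2, the collagen galactosyltransferase gene Colgalt1, the endosomal chaperone gene Dnajc13, the importin gene Kpna6, Mpzl1, Tm9sf4 and Peak1, with CVs of 0.393% to 0.922%. The CV of all 10 lay below the counting error of their own counts, so that their order lies within counting error.

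The lists differed in which library was high. Besides the endothelial and stromal lists, air replicate 3 was highest in 20 of the 22 interferon response genes, against 31.8% of all kept genes. The ubiquitin-like Isg15 had 101, 118 and 274 TPM, Ifit3 79.2, 82.3 and 166 TPM and the membrane protein Bst2 609, 554 and 896 TPM. Of the 22 genes, 4 reached 2-fold, each with air replicate 3 highest, against 3.52% of all kept genes. Without air replicate 3 it was 0, against 405 of the 12927 genes then kept. In the complement list 6 of 17 kept genes reached 2-fold, 5 of them with air replicate 3 highest, against 7.51% and 3.52% of all kept genes, and again 0 did without it. Air replicate 1 was highest in all 23 cytosolic ribosomal protein genes, against 35.3% of all kept genes, although the differences were small: Rplp1 had 9443, 7540.4 and 8182 TPM, Rpl4 2506, 2129.9 and 2185 TPM and Rplp0 2794, 2360.3 and 2589 TPM. Of the 23 genes 0 reached 2-fold, against 7.51% of all kept genes. The median log2 level of the ribosomal list over the gene means was 0.17 in air replicate 1, -0.16 in air replicate 2 and -0.05 in air replicate 3. The same median for endothelial genes was -0.65, -0.54 and 0.77. Air replicate 2 was highest in 10 of 15 pattern recognition genes of a list chosen after the values were seen, against 32.9% of all kept genes, among them the endosomal receptor Tlr7 (123, 198 and 130.2 TPM) and the endotoxin receptor Tlr4 (39.9, 78.3 and 49.5 TPM).

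**Figure D4:**
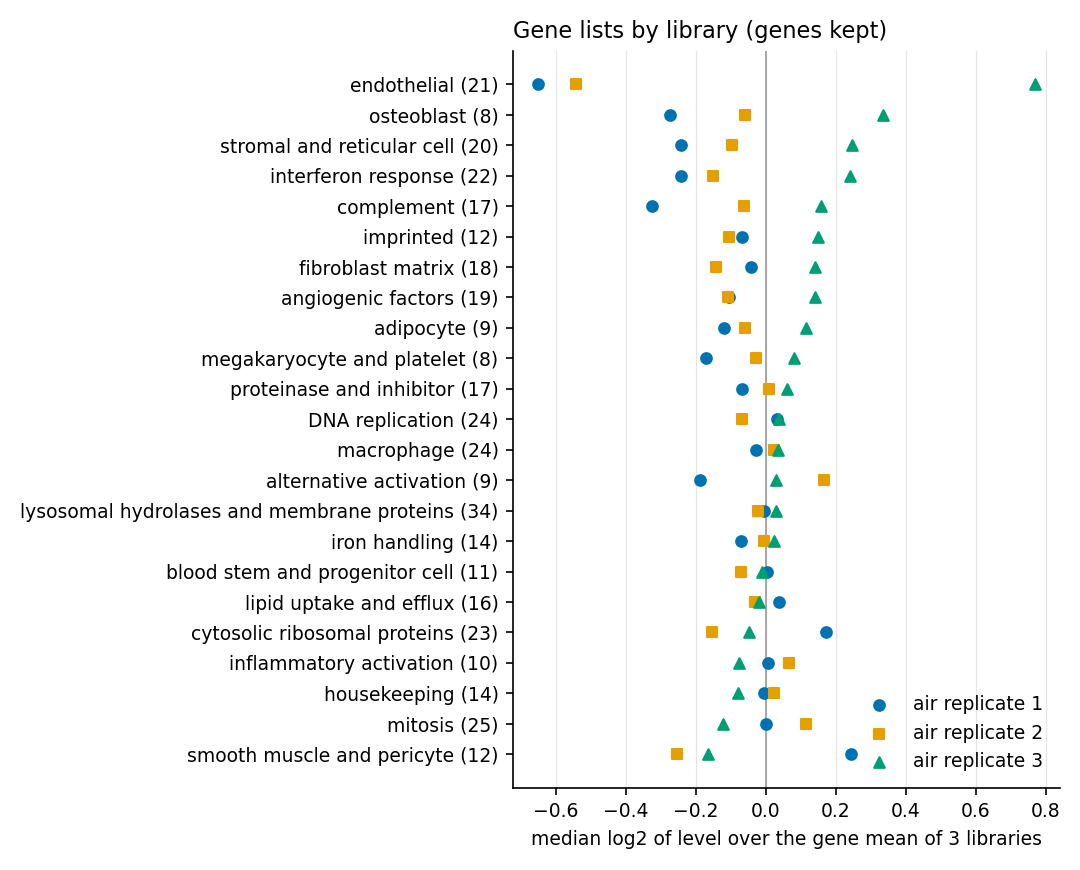
Median over each list's kept genes (number in brackets) of the log2 level in a library over the gene's mean of 3 libraries, for fixed lists with at least 8 kept genes. Air replicate 3 stands to the right for endothelial genes (0.77) and, less so, for osteoblast, stromal and interferon genes, and air replicate 1 for ribosomal (0.17) and smooth muscle genes (0.24).

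Base composition moved with the libraries and is given beside these orders. Among the 3199 kept genes whose longest transcript was poorest in G and C (31.0% to 44.8%), air replicate 2 was highest in 71.3%, with a median log2 level of 0.18 over the gene means, against -0.14 in air replicate 1 and -0.08 in air replicate 3. In the 3199 genes richest in G and C (54.5% to 71.3%) air replicate 2 was highest in 7.38% and had a median of -0.15. Tlr7 and Tlr4 stand in a list with a median GC content of 45.6%, against 49.7% over all kept genes. The median GC content of the lists high in air replicate 1 or 3 was 52.0% for ribosomal proteins, 53.7% for endothelial genes and 48.2% for interferon genes. After each gene was centred on the median of genes of like GC content, a step added after the values were seen, 842 genes reached 2-fold in place of 961. The endothelial count stayed at 14 of 21 with air replicate 3 highest in 19, the stromal count at 6 of 20 and the interferon count at 4 of 22 with air replicate 3 highest in 20, and air replicate 1 remained highest in all 23 ribosomal genes. The complement count was 5 of 17 in place of 6. In the pattern recognition list, air replicate 2 was then highest in 8 of the 15 genes. How RNA quality or library preparation differed between the 3 cultures is not given in the sources used here.

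**Figure D5:**
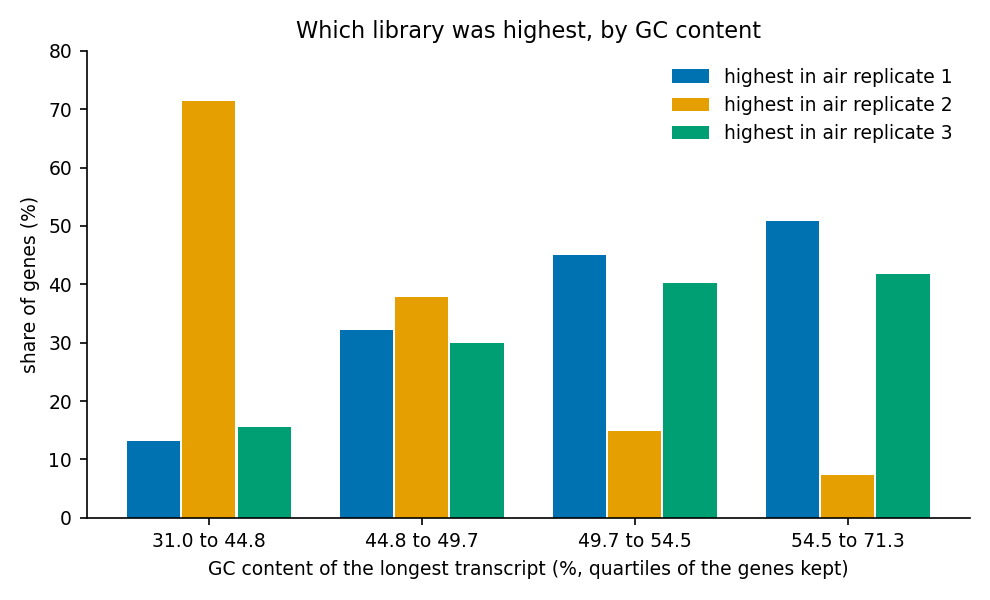
Share of kept genes (%) whose highest library was air replicate 1, 2 or 3, in quartiles of the GC content of the longest transcript (%). Air replicate 2 is highest in 71.3% of the genes poorest in G and C and in 7.38% of the richest.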

How the data were processed

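The authors made the deposited table of raw counts per gene from strand-marked poly-A libraries. The submitters' processing notes name bcl2fastq 20.0.422, FastQC 0.10.1, the aligner STAR 2.6, the counter HTSeq 0.10.0 and the build mm10. Which gene annotation, strand option and rule for reads matching several places were used was not found in the labels or methods. Only the 3 air columns, each matched to its sample by name, were read, with 28713206 to 29063232 counts per library, and 0 columns belonged to no sample of the series. Mitochondrial and nuclear noncoding RNA genes were not analysed here, and a few markers are not reported here.

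Ensembl IDs were matched to symbols for 21939 of 21965 genes (99.88%). Counts were divided by the library total (CPM), and by the union exon length of GENCODE vM21 for TPM. Genes with at least 10 counts in each library were kept. The biological coefficient of variation was estimated with edgeR 4.0.16 in R 4.3.3, and a difference of 2-fold between the highest and the lowest CPM was counted as a description. With 1 group no test was made and no p-value is given. The labels give each culture a replicate number and a library name, and say no more of the separate cultures. In its library name, the culture called air replicate 3 carries the number 4. The names of the other air libraries carry their replicate numbers. No air library is named with the number 3, and the reason is not given in the sources used here. On simulated counts for the 12799 genes, a coefficient of 20% was estimated as 19.9%, and of 200 genes raised 4-fold in 1 library 198 reached 2-fold, as did 752 of 12542 unchanged genes.

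Named genes are the 20 highest by mean CPM, the 4 anchor genes Ctsb, Lyz2, Fn1 and Cdh5, the defining markers, up to 6 of the most abundant genes per list, the 15 of highest over lowest CPM among those of at least 5 CPM and the 10 most even of at least 100 CPM. Genes named outside these were chosen after their values were seen. The members and the 37 lists were chosen with earlier results of these data known. The 10 further lists, the promoters shown and the look at GC content were added after the values were seen. Alternatives covered the count minimum, normalization (library total, TMM, RLE), scale, number of top genes and each library left out. Promoters are those of RefSeq (GRCm38.p6), matched by symbol. Exact binomial and Poisson intervals at 95% come from scipy 1.17.1.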

Additional observations from a re-analysis of the deposited data

How the results depend on the processing

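No paired analysis was possible because the air libraries form 1 group and no test was made. Of 98 values under other settings, 17 moved, where a count or the biological coefficient of variation moved by over 1.5 times, a ratio of list sums or a share of counts by over 1 SD of the libraries or a motif share out of its 95% interval. The number of kept genes ranged between 11540 and 13985 over the count minimums and between 12920 and 12963 with 1 library left out. The 20 most abundant genes by CPM were 19 or 20 of the same genes under TMM or RLE scaling and without any 1 library, but 11 of them by TPM. The ratio of macrophage to endothelial RNA was 128 with summed CPM in place of 338 with summed TPM, since length scaling weights short genes such as Lyz2 more, and between 293 and 394 with 1 library left out. The number of genes at 2-fold was 3658 with no count filter and 396 with at least 50 counts in each library, against 961, and between 405 and 592 with 1 library left out. The number of endothelial genes at 2-fold was 9 with at least 50 counts in each library, against 14, and between 3 and 14 with 1 library left out, with the low value without air replicate 3. Genes with few counts are limited by depth: at 10 counts, a level is 0.348 CPM in air replicate 1.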

Other observations

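Genes often used as references in quantitative PCR were not equally even in the air cultures. Of 14 such genes, all were kept. Gusb, a lysosomal enzyme, had a CV of 2.07% and Sdha 3.56%, while Hprt had 3106, 4024 and 2686 counts and a CV of 20.3%, Gapdh 12.7%, Actb 8.10% and Tfrc 32.2%. The median CV over all kept genes was 12.3%.

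Imprinted genes, expressed from the copy of 1 parent, were kept in 12 of the 16 cases in the table. Air replicate 3 was highest in 9 of these 12, against 31.8% of all kept genes. Of the 12, 4 reached 2-fold, each with air replicate 3 highest, against 3.52% of kept genes. The 4 were Mest with 18, 25 and 95 counts, Peg3 with 79, 144 and 268, Cdkn1c with 158, 153 and 312 and Plagl1 with 930, 2141 and 2356. Gnas, Igf2r and Grb10, the most abundant, differed by 1.27-fold, 1.11-fold and 1.07-fold. Cartilage genes were split, with 2026, 1393 and 1167 counts for the collagen gene Col2a1 and 884, 778 and 744 for the factor Sox9 but 0 for Acan and Col9a1.

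The length of the exons moved with the libraries too. Among the shortest kept genes (231 to 2891 bases), air replicate 1 was highest in 51.4%, and among the longest (6899 to 123179 bases) air replicate 2 was highest in 44.7%. The part of length in the other orders was not tested.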
